A study of Mus musculus with 4 samples.

Results

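Glutamatergic neurons in which no Tcf7l2 transcript was counted were set apart from the other glutamatergic neurons of the mouse thalamus 7 days after an injection of saline or of Coll IV, a collagenase that opens vessel walls and causes bleeding. A nucleus was taken when it held at least 4000 unique molecular identifiers (UMIs, each marking 1 captured RNA molecule), less than 5% mitochondrial UMIs and at least 4 of the neuronal transcripts Rbfox3, Snap25, Syt1, Myt1l and Celf4. It also had to hold at least 2 UMIs of Slc17a6, more Slc17a6 than Gad1 plus Gad2 UMIs, fewer than 10 Nwd2 and 5 Npsr1 UMIs, and 0 Tcf7l2 UMIs. The rule found 831 nuclei among 32332 barcodes, of which 32291 passed the mitochondrial limit and 23395 were also deep enough. They are called Tcf7l2-0 neurons here. The 3243 nuclei that met every other criterion and held at least 1 Tcf7l2 UMI are called Tcf7l2-positive neurons, so that Tcf7l2-0 neurons were 20.4% of 4074 glutamatergic neurons.

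The animals were wild-type C57BL6 mice, 7 to 8 weeks old. NS mice received saline and COL mice received Coll IV, in both groups by injection into VPM and VPL of the right thalamus, its ventral posterior nuclei. Tissue of 3 mice of a group was pooled for each single-nucleus RNA sequencing (snRNA-seq) library, and each group had 2 libraries. Values of single libraries are given in the order NS 1, NS 2, COL 1 and COL 2. The library was the unit of replication, and nuclei of a library shared their mice and their preparation.

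Tcf7l2 encodes a transcription factor of the Wnt pathway that marks excitatory neurons of the dorsal thalamus and habenula through life. Slc17a6 encodes VGLUT2, the transporter that loads glutamate into synaptic vesicles, and serves most excitatory neurons of the thalamus, hypothalamus, midbrain and brainstem. Excitatory neurons without Tcf7l2 are found among those around the thalamus. There, regional transcription factors such as Sim1, Lmx1a and the Ebf family mark hypothalamic, mammillary, subthalamic, pretectal and midbrain cells. The lack of Tcf7l2 is not taken here as a mark of any of these regions. In the GENCODE M21 annotation of GRCm38 (mm10), Tcf7l2 lies on the plus strand at chr19:55741820-55933654 and Slc17a6 on the plus strand at chr7:51622006-51671119.

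The libraries held 68746459 to 77557870 UMIs in 5943 to 10438 barcodes. NS 1 contributed 371 Tcf7l2-0 neurons, NS 2 contributed 232, COL 1 contributed 56 and COL 2 contributed 172. The summed depth of these nuclei was 3986623, 2439507, 783300 and 2844032 UMIs, so COL 1 gave the least precise values. A total of 102 barcodes occurred in 2 libraries, among them 2 barcodes of Tcf7l2-0 neurons, and none was a Tcf7l2-0 neuron in both. COL 1 stood apart from the other libraries in its low number of these nuclei.

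The criteria left many nuclei near their limits. Of the 831 nuclei, 448 held the minimum of 2 Slc17a6 UMIs and 240 held 3, while 671 other nuclei failed only because they held 1. On the other side of the Tcf7l2 criterion, 421 glutamatergic neurons held 1 Tcf7l2 UMI, 200 held 2 and 1735 held 10 or more. Depth near the limit was rare, with 25 of the 831 nuclei under 5000 UMIs. All 5 neuronal transcripts were found in 715 nuclei, at least 1 Gad1 or Gad2 UMI in 328, a Nwd2 UMI in 288 and a Npsr1 UMI in 94. The nuclei were thus selected on the measured UMIs of these genes, of Tcf7l2 and in total, so their levels are a description of the rule and were not tested.

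The level of Slc17a6, a gene of the rule, was set beside nuclei that should lack it, as a description. Slc17a6 reached 262, 246, 200.4 and 186 CPM (UMIs of the gene per 1e6 UMIs of the class) in Tcf7l2-0 neurons and 216, 208, 189.9 and 201 CPM in Tcf7l2-positive neurons. Oligodendrocyte nuclei, of the myelinating cells, were used as the reference (at least 1% of UMIs from the oligodendrocyte list and at most 3 of the 5 neuronal transcripts) and gave 56.5, 60.1, 45.5 and 48.0 CPM. When every nucleus was thinned at random to 4000 UMIs, Slc17a6 was found in 58.9% to 74.9% of Tcf7l2-0 neurons and in 16.5% to 22.0% of oligodendrocyte nuclei. Before thinning, between 4.49% and 4.96% of oligodendrocyte nuclei held the 2 Slc17a6 UMIs that the rule asked for, at median depths of 4811.5 to 5945 UMIs. Median depths of the Tcf7l2-0 neurons were 10021, 9610, 11607 and 14487 UMIs. Since Tcf7l2-0 neurons had to hold 2 Slc17a6 UMIs and the reference did not, the gap between them does not test the glutamatergic label. Transcripts of a list of 10 GABA neuron genes, which serve inhibitory cells, summed to 81.7 to 195 CPM in Tcf7l2-0 neurons, 35.3 to 98.7 CPM in Tcf7l2-positive neurons, 253 to 362 CPM in GABA-type neurons (the same rule with at least 2 Gad1 or Gad2 UMIs that outnumbered Slc17a6, whatever the Tcf7l2 count) and 96.1 to 191 CPM in oligodendrocyte nuclei.

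Tcf7l2-0 neurons made up a smaller share of glutamatergic neurons in COL 1 than in any other library. The share was 32.4% in NS 1 (371 of 1145 nuclei, 95% Clopper-Pearson interval 29.7% to 35.2%), 22.7% in NS 2 (232 of 1021, 20.2% to 25.4%), 5.42% in COL 1 (56 of 1034, 4.12% to 6.98%) and 19.7% in COL 2 (172 of 874, 17.1% to 22.5%). These intervals cover counting error only. Both NS values lay above both COL values, but NS 2 and COL 2 had overlapping intervals. The NS mean was 27.6% ± 6.84 (SD, n = 2) and the COL mean 12.5% ± 10.1 (SD, n = 2). The difference of COL minus NS was -15.0 percentage points with a two-sided exact permutation p of 0.333, the smallest p that 2 libraries against 2 allow. Without COL 1 the difference was -7.88 points. A difference between the groups was therefore not shown, and the design could not reach a p under 0.05.

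Finding no Tcf7l2 UMI was also less frequent in deeper nuclei. Among glutamatergic neurons of 4000 to 6000 UMIs, the Tcf7l2-0 share was 64.7%, 50.0%, 28.6% and 46.7%, whereas among those of at least 25000 UMIs it was 2.54%, 2.94%, 1.58% and 17.7%. With every nucleus thinned to 4000 UMIs before the rule was applied, the shares were 53.0%, 38.8%, 13.5% and 35.6%. COL 1 remained lowest and NS 1 highest at this common depth. Nuclei of other types followed the same order of libraries. Tcf7l2 was at 0 UMIs in 60.0%, 55.9%, 35.5% and 46.6% of GABA-type neurons, and in 57.0%, 54.3%, 38.1% and 47.1% of oligodendrocyte nuclei. These percentages were taken without thinning, and COL nuclei were deeper. Median depths were 9734.5, 8914, 13804 and 14283 UMIs in GABA-type neurons and 4900.5, 4811.5, 5655 and 5945 UMIs in oligodendrocyte nuclei. The parts that depth and the level of Tcf7l2 in each library had in these percentages, and in the share of Tcf7l2-0 neurons, were not tested.

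**Figure D1:**
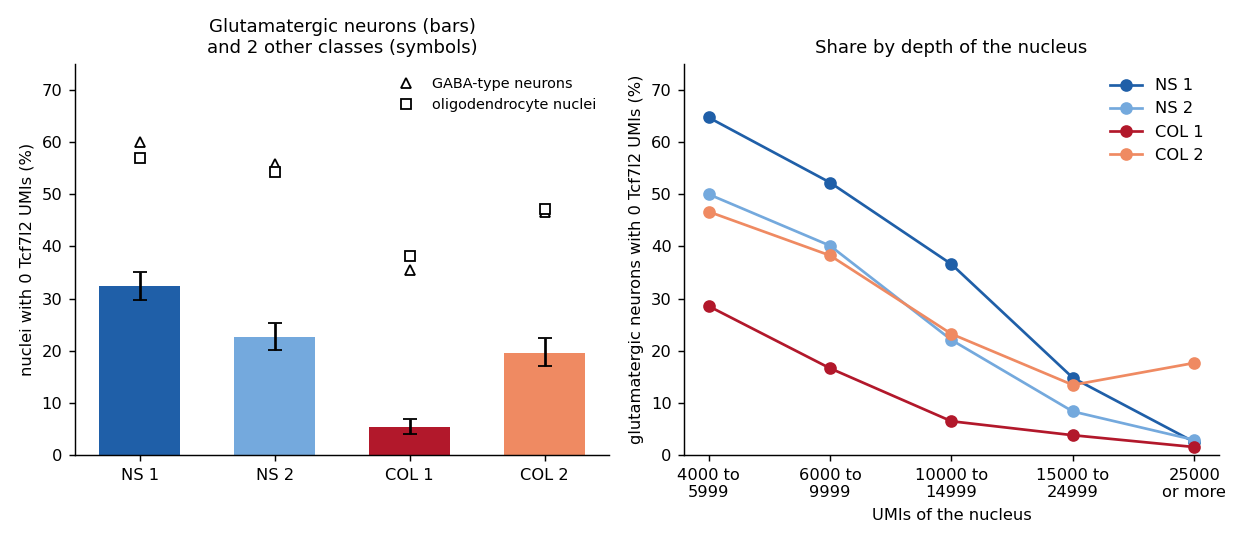
Left, percentage of glutamatergic neurons with 0 Tcf7l2 UMIs in each library (bars, with 95% Clopper-Pearson intervals), beside the same percentage among GABA-type neurons (triangles) and oligodendrocyte nuclei (squares). Right, the percentage among glutamatergic neurons by UMIs per nucleus, one line per library. The bars run from 5.42% in COL 1 to 32.4% in NS 1, and the percentage falls with depth up to 25000 UMIs in each library.

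Tcf7l2-0 neurons held lower levels of thalamic genes and higher levels of hypothalamic, subthalamic and mammillary genes than Tcf7l2-positive neurons of the same libraries. Counts were summed per library and class, and the classes were compared with the library as a block in edgeR (quasi-likelihood test). The p-values were adjusted by the Benjamini-Hochberg method over all genes fitted, of which 18814 were not genes of the rule. In all, 3733 genes differed (19.8% of those tested), of which 1640 were higher in Tcf7l2-0 neurons (8.72%) and 2093 were lower (11.1%). The median log2 difference over all genes was 0.04. Without NS 1 the total went from 3733 to 2355 calls. The genes of the rule were fitted but left out of these counts. The comparison answers which other transcripts differ where Tcf7l2 was not found.

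All 12 genes of the thalamic list were lower in Tcf7l2-0 neurons, with a median log2 difference of -1.80 and a range from -4.01 to -1.04. The gene lists were chosen with earlier results of these data known, so this count is a description and not independent support. Lef1, the DNA-binding partner of beta-catenin in the Wnt pathway (chr3:131110471-131224356, plus strand), stood at 18.3, 58.2, 54.9 and 73.1 CPM, against 417, 558, 549.5 and 355 CPM in Tcf7l2-positive neurons (log2 difference -3.44 ± 0.22 SE, adjusted p = 2.97e-09). Synpo2, which encodes an actin-binding protein (chr3:123076519-123236149, minus strand), stood at 26.3, 33.2, 77.9 and 30.9 CPM, against 493, 589.7, 702 and 374 CPM (-4.01 ± 0.14, adjusted p = 1.69e-12). No library of one class reached a value of the other class for either gene. In oligodendrocyte nuclei, Lef1 stood at 16.6, 20.3, 55.9 and 35.4 CPM and Synpo2 at 24.7, 26.7, 93.8 and 40.2 CPM. Synpo2 in Tcf7l2-0 neurons was thus close to this class, which should lack it, whereas Lef1 was above it in NS 2 and COL 2. At 4000 UMIs, Lef1 was found in 7.55%, 16.4%, 14.3% and 16.3% of Tcf7l2-0 neurons and in 6.05%, 8.31%, 20.1% and 13.9% of oligodendrocyte nuclei, compared with 41.9% to 64.0% of Tcf7l2-positive neurons.

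Ntng1, Rora and Foxp2 were lower but still above the reference in every library. Ntng1, which encodes the axon guidance protein netrin-G1, stood at 728, 783, 795 and 627 CPM in Tcf7l2-0 neurons, compared with 2075 to 3859 CPM in Tcf7l2-positive neurons and 156 to 455 CPM in oligodendrocyte nuclei. Rora, a nuclear receptor of thalamic development, stood at 1492 to 2653 CPM against 3325 to 4108 CPM, and Foxp2, a forkhead factor, at 189.8 to 216 CPM against 354 to 402 CPM. Their log2 differences were -2.25 ± 0.11, -1.04 ± 0.10 and -1.09 ± 0.09 (SE, adjusted p of 6.44e-11, 4.52e-07 and 7.64e-08). Shox2, a homeobox factor of thalamic neurons, stood at 3.76 to 9.43 CPM, within reach of the 4.66 to 7.77 CPM of oligodendrocyte nuclei. Gbx2, which specifies thalamic neurons in the embryo, had 2 UMIs in all Tcf7l2-0 neurons together. Summed over the 12 genes, the thalamic list reached 2649 to 4102 CPM in Tcf7l2-0 neurons, 7019 to 9947 CPM in Tcf7l2-positive neurons, 2417 to 3354 CPM in GABA-type neurons and 942 to 1729 CPM in oligodendrocyte nuclei.

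Hypothalamic factors were higher in Tcf7l2-0 neurons. All 5 tested genes of this list of 8 passed the test, with a median log2 difference of 2.07. The filter on low counts could be passed through the sums of 1 class alone, here and in the other lists. Such counts of passing genes are therefore a description and not independent support. Sim1, which specifies neurons of the paraventricular and supraoptic nuclei (chr10:50894754-50989152, plus strand), stood at 92.3, 33.6, 48.5 and 46.1 CPM, compared with 20.1, 3.27, 4.54 and 13.7 CPM in Tcf7l2-positive neurons and 0.834 to 2.95 CPM in oligodendrocyte nuclei. The log2 difference was 2.26 ± 0.19 SE (adjusted p = 7.44e-08). NS 1 was the highest library in both classes, and the classes did not overlap. After thinning, Sim1 was found in 24.3%, 7.33%, 12.5% and 12.2% of Tcf7l2-0 neurons and in 0.381% to 1.23% of oligodendrocyte nuclei. Otp (2.07 ± 0.47, adjusted p = 3.55e-03), which acts with Sim1 in the same hypothalamic nuclei, Nkx2-1 (2.00 ± 0.35, adjusted p = 3.94e-04), a factor of the basal hypothalamus, and Nr5a1 (2.11 ± 0.47, adjusted p = 3.28e-03), a factor of the ventromedial nucleus, were all under 12 CPM in every library. Fezf1, a factor of the early forebrain (1.75 ± 0.52, adjusted p = 2.37e-02), was the remaining gene and lost its call without NS 1 (adjusted p = 0.136) or NS 2 (adjusted p = 0.108). Nkx2-1 had no UMI in the Tcf7l2-0 neurons of COL 1, and Nr5a1 had none in oligodendrocyte nuclei. With nuclei thinned to 4000 UMIs, 1 gene of the hypothalamic list, Sim1, passed the test.

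Subthalamic and mammillary factors were higher as well, in 5 of 6 tested genes of this list of 8, with a median log2 difference of 1.93. Lmx1a, a LIM homeobox factor (chr1:167689237-167848741, plus strand), stood at 41.6, 29.5, 3.83 and 45.4 CPM, compared with 9.38, 5.19, 1.30 and 9.21 CPM in Tcf7l2-positive neurons (2.11 ± 0.15 SE, adjusted p = 6.64e-09). The level in COL 1 lay below those of NS 1, NS 2 and COL 2 in Tcf7l2-positive neurons, while within each library Tcf7l2-0 neurons were higher. Its relative Lmx1b (15.1, 16.8, 8.94 and 28.8 CPM) differed by 1.85 ± 0.18 SE (adjusted p = 6.00e-07). Barhl2 and Foxb1, a factor of the mammillary body, also passed, both under 5 CPM in every library, and Foxb1 lost its call in 4 of 12 alternatives, namely DESeq2 (adjusted p = 0.134) and those without NS 1 (0.232), NS 2 (0.0796) or COL 2 (0.0577). Lmx1a and Lmx1b were among the 3 genes of this list that passed after thinning.

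Among midbrain and pretectal genes the result was mixed. Of 13 genes tested from 15 in the list, 6 were higher and Tfap2d was lower in Tcf7l2-0 neurons, and the median log2 difference was 0.97. The Ebf genes encode helix-loop-helix factors of neuronal differentiation. Ebf2 (chr14:67233292-67430918, plus strand) stood at 68.0, 69.7, 102 and 139 CPM, compared with 20.2, 25.0, 20.8 and 43.4 CPM in Tcf7l2-positive neurons and 2.44 to 6.12 CPM in oligodendrocyte nuclei (1.59 ± 0.11 SE, adjusted p = 4.37e-09). Ebf3 differed by 1.41 ± 0.13 SE (adjusted p = 3.05e-07) and Ebf1 by 0.53 ± 0.13 SE (adjusted p = 6.17e-03), which was 0.33 without NS 1 (adjusted p = 0.0541). Tfap2d lost its call without NS 1 (adjusted p = 0.0654) or COL 2 (0.367) and with DESeq2 (0.208). Meis2, a TALE homeobox factor also common in inhibitory neurons, stood at 40.6, 142, 306 and 125 CPM in Tcf7l2-0 neurons and at 25.0, 53.4, 41.8 and 147 CPM in Tcf7l2-positive neurons, so that the classes overlapped (0.97 ± 0.28 SE, adjusted p = 1.99e-02). Without NS 2 the adjusted p of Meis2 was 0.0912, and without COL 1 the difference was 0.45 (adjusted p = 0.12). En1, a factor of the midbrain, and Sox14, a factor of pretectal and other diencephalic neurons, completed the 6, both under 5 CPM, and Sox14 kept its call in 4 of 11 alternatives. Summed over the list, GABA-type neurons stood at 418, 568, 672 and 474 CPM, below the 422, 608, 783 and 662 CPM of Tcf7l2-0 neurons in each library. Tcf7l2-positive neurons stood at 164, 302, 225 and 515 CPM. With DESeq2 in place of edgeR, and likewise without NS 2, 3 genes of the list were higher.

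Lists of other regions gave fewer differences. In the cortical and hippocampal list Bcl11b, a factor of cortical projection neurons, was higher in Tcf7l2-0 neurons, while Slc17a7, the transporter VGLUT1, and Cux2 were lower. Slc17a7 stood at 2.76 to 10.7 CPM against 14.0 to 24.3 CPM in Tcf7l2-positive neurons (-1.89 ± 0.19 SE, adjusted p = 8.80e-07). None of 7 habenular genes passed the test, and no hindbrain gene had enough counts to be tested.

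**Figure D2:**
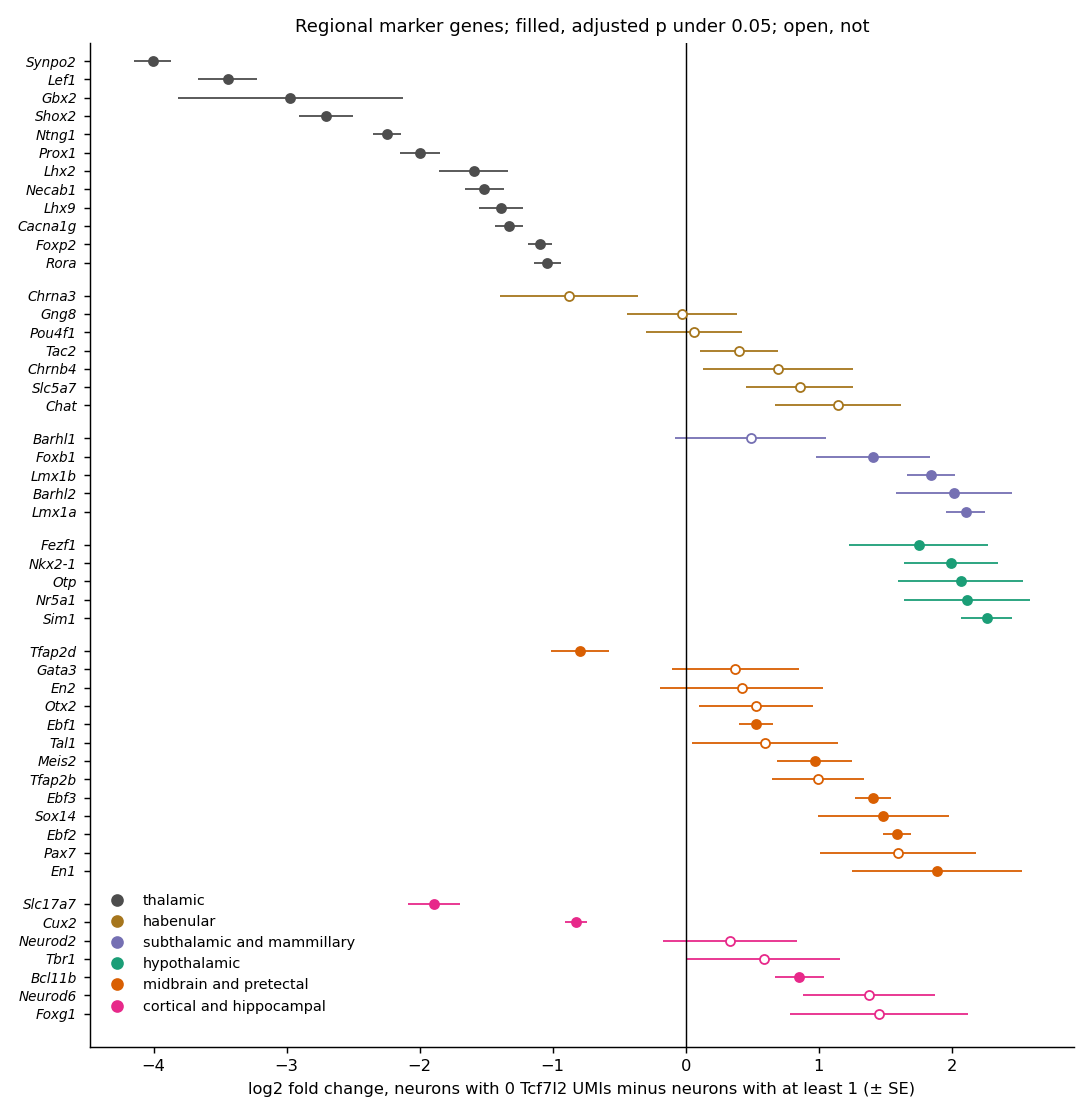
Log2 difference between Tcf7l2-0 and Tcf7l2-positive neurons (points, with standard errors) for genes of 6 regional lists, filled where the adjusted p was under 0.05. All 12 thalamic genes lie below 0, and the hypothalamic genes lie between 1.75 and 2.26.

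Genes that were named for the size of the difference and not from a list belonged to several functions. Slit2, which encodes a repellent ligand of growing axons, stood at 364, 253, 283 and 326 CPM in Tcf7l2-0 neurons and at 62.5 to 123 CPM in Tcf7l2-positive neurons (1.50 ± 0.10 SE, adjusted p = 2.66e-09). Sema3a, another repellent ligand, stood at 25.0 to 31.9 CPM against 6.20 to 15.8 CPM (1.47 ± 0.20 SE, adjusted p = 2.43e-05). Klhl1, a neuronal actin-binding protein, stood at 186 to 275 CPM against 49.4 to 116 CPM (1.47 ± 0.09 SE, adjusted p = 1.93e-09). For these 3 genes the classes did not overlap. The serotonin receptor gene Htr2a differed by 1.58 ± 0.16, the heparan sulfate enzyme gene Ndst4 by 1.57 ± 0.20 and the zinc finger gene Zim1 by 1.50 ± 0.13 on the log2 scale. Erbb4, the neuregulin receptor, was higher in Tcf7l2-0 neurons (1109 to 2209.9 CPM against 388 to 656 CPM, log2 difference 1.44 ± 0.16) but stood at 1491 to 2248 CPM in oligodendrocyte nuclei. The fit placed Hspa1a, a heat shock protein gene, first with 3.38 ± 0.67 SE, but it stood at 124 CPM in COL 1 and at 0.820 to 2.81 CPM elsewhere, and 95 of its 97 UMIs in COL 1 came from 1 nucleus. Without COL 1 its difference was 0.79 (adjusted p = 0.287) and it was not called.

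The 8 named genes that were lower fell by 3.60 to 4.52 on the log2 scale, and each was near the reference in Tcf7l2-0 neurons. Edaradd, an adaptor of the ectodysplasin receptor, stood at 1.41 to 6.38 CPM against 40.6 to 60.3 CPM in Tcf7l2-positive neurons, and at 0.834 to 6.30 CPM in oligodendrocyte nuclei. Prkcd, a protein kinase C gene widely used to mark thalamic relay neurons, stood at 6.52, 11.9, 25.5 and 12.7 CPM against 99.6 to 175 CPM, and at 8.12 to 33.1 CPM in oligodendrocyte nuclei (-3.62 ± 0.14 SE, adjusted p = 6.33e-12). Abhd12b, Mrvi1, Synpo2, the magnesium channel gene Trpm6, the kinase gene Prkch and Grid2ip made up the rest. All 8 kept their call in every alternative run for this comparison.

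**Figure D3:**
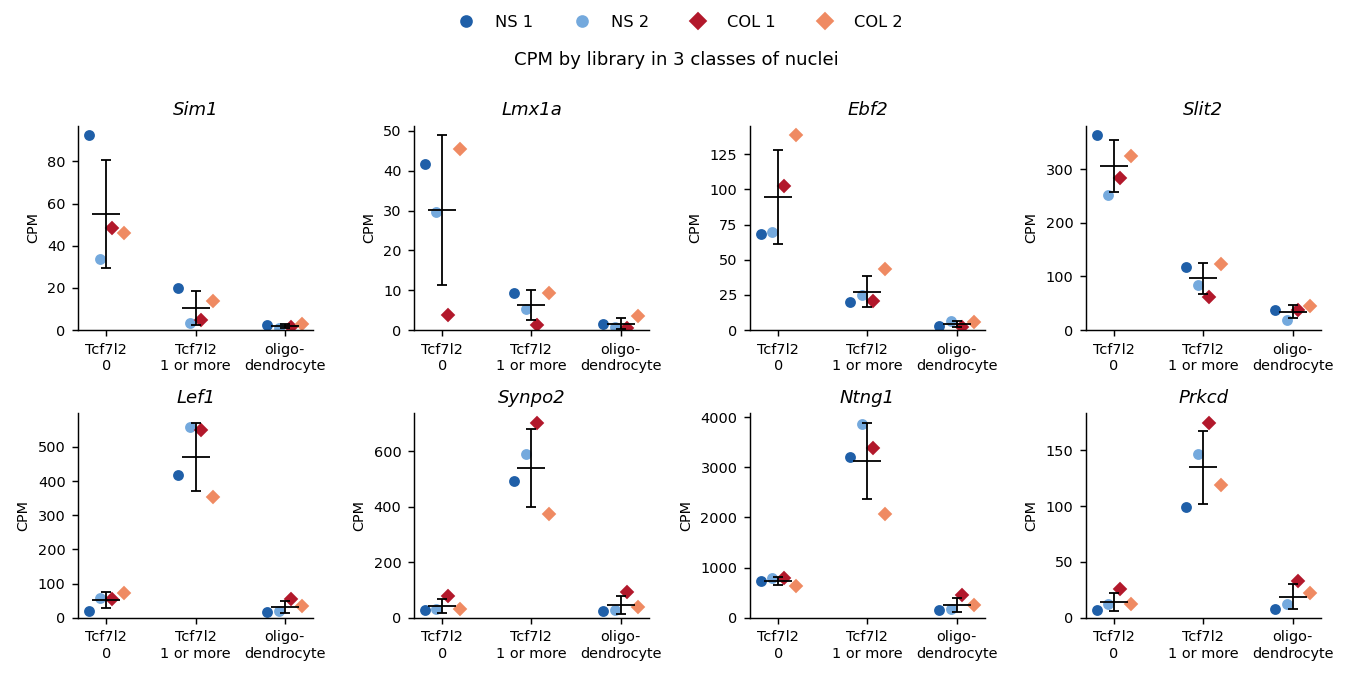
CPM in each library (symbols) of 4 genes that were higher and 4 that were lower in Tcf7l2-0 neurons, beside Tcf7l2-positive neurons and oligodendrocyte nuclei, with the mean and SD of the 4 libraries. Sim1 reaches 92.3 CPM in Tcf7l2-0 neurons of NS 1, and Synpo2 lies near the oligodendrocyte nuclei in the Tcf7l2-0 neurons.

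Transcripts for firing properties differed in both directions. Of 12 excitability genes, 3 were higher and 7 were lower in Tcf7l2-0 neurons. Among the T-type calcium channel genes, which drive burst firing of thalamic cells, Cacna1h (1.05 ± 0.17 SE, adjusted p = 2.07e-04) and Cacna1i (0.87 ± 0.11 SE, adjusted p = 1.30e-05) were higher, while Cacna1g, listed with the thalamic genes, was lower with 45.5 to 109 CPM against 123 to 196 CPM (-1.33 ± 0.11 SE, adjusted p = 5.12e-08). Hcn4, a pacemaker channel gene, was lower with 2.55 to 7.27 CPM against 9.91 to 13.3 CPM. The potassium channel gene Kcnc2 stood at 474, 610.0, 926 and 646 CPM against 1551 to 2338 CPM (-1.80 ± 0.12 SE, adjusted p = 5.10e-09). Kcnd2, Kcnq3, Kcnk3, Scn1a and Scn8a were the other lower genes. Scn1a lost its call without NS 1 (adjusted p = 0.224), NS 2 (0.0675) or COL 1 (0.0518) and Scn8a without NS 1 (0.105), while Kcnk3 (0.17) and Cacna1h (0.105) lost theirs after thinning.

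Of 14 neuropeptide genes, 7 were higher in Tcf7l2-0 neurons. Adcyap1, the peptide PACAP, was above oligodendrocyte nuclei in each library, and the 6 others were below them in at least 1 library. Adcyap1 stood at 23.3, 20.9, 8.94 and 12.7 CPM, compared with 2.36 to 10.6 CPM in Tcf7l2-positive neurons and 5.65, 3.89, 2.44 and 3.42 CPM in oligodendrocyte nuclei (1.13 ± 0.19 SE, adjusted p = 3.05e-04). Pmch, the peptide melanin-concentrating hormone of the lateral hypothalamus, stood at 80.8, 55.7, 2.55 and 13.4 CPM in Tcf7l2-0 neurons and at 49.1, 38.6, 4.67 and 17.1 CPM in oligodendrocyte nuclei. Penk, Tac1 and Trh were above the reference in 3 of 4 libraries, and Cartpt, Hcrt, the peptide orexin, and Pmch in 2. In the GABA neuron list Dlx6os1 was higher, and Th, Ddc and Slc6a3, genes of dopamine synthesis and uptake, were higher among 6 genes of other transmitters. The whole list of 9 genes of other transmitters summed to 58.7, 67.6, 23.0 and 46.8 CPM in Tcf7l2-0 neurons. In oligodendrocyte nuclei it summed to 64.6, 38.6, 22.5 and 34.2 CPM. Dlx6os1 lost its call without NS 1 (adjusted p = 0.0523), Th without NS 1 (0.168) or NS 2 (0.189) and Slc6a3 without NS 2 (0.0655). The count of neuropeptide genes was 2 after thinning and also with at least 3 Slc17a6 UMIs, and 4 with DESeq2 and also without COL 2, where Cartpt (adjusted p = 0.13), Trh (0.348) and Hcrt (0.115) lost their calls. Cartpt (0.0646) and Trh (0.0652) also lost theirs without NS 2, and Trh without COL 1 (0.0657). Among 14 injury and activity genes none was called higher by edgeR and Nr4a1, an immediate early gene, was lower.

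Some markers of other cells differed between the classes, while none of 6 oligodendrocyte precursor genes and none of 5 tested endothelial and mural genes was called. Among 8 astrocyte genes Slc1a2, Slc1a3, Slc4a4 and Aqp4 were lower in Tcf7l2-0 neurons. Their list summed to 154 to 259 CPM, against 408 to 658 CPM in Tcf7l2-positive neurons and 229 to 485 CPM in oligodendrocyte nuclei. Slc1a2 and Slc4a4 kept their calls in 13 of 13 alternatives, while Slc1a3 (adjusted p = 0.12 without NS 1, 0.0800 without NS 2) and Aqp4 (0.399 without NS 1, 0.171 without COL 2) lost theirs in 6 of 13. Their part in the differences between the classes was not tested. The oligodendrocyte list summed to 909 to 1674 CPM against 548 to 1216 CPM, and Mag and St18 of its 8 genes were higher, calls that were kept in 4 and 6 of 13 alternatives and were lost without COL 1 (adjusted p of 0.0877 and 0.235) or COL 2 (0.117 and 0.225), for Mag also without NS 2 (0.115). When subgroup 7 of the clustering, an oligodendrocyte-rich group of 50 nuclei, was left out, both turned in direction (-0.14, adjusted p = 0.301 for Mag, and -0.89, adjusted p = 4.50e-06 for St18). Among 8 microglia and macrophage genes F13a1 was higher and 1 gene was lower. F13a1 lost its call after thinning (0.61, adjusted p = 0.22) and with at least 3 Slc17a6 UMIs (0.37, adjusted p = 0.519). In oligodendrocyte nuclei the oligodendrocyte list summed to 14300.1 to 16387 CPM, far above the sums of both classes of neurons. Subgroup 7 alone reached 6548 CPM.

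Some pairs of transcription factors were not found in the same nuclei, while others were found together. At least 2 UMIs of Sim1 were found in 137 of the 831 nuclei (83, 20, 8 and 26 by library), of Ebf2 in 108 (30, 33, 7 and 38), of Meis2 in 97 (22, 34, 13 and 28) and of Lmx1a in 84 (42, 19, 0 and 23). Sim1 and Lmx1a were not found together at this level in any nucleus, nor were Lmx1a and Meis2. Lmx1a was found with Ebf2 in 28 nuclei, whereas Sim1 was found with Ebf2 in 10 and with Meis2 in 6. Ebf2 and Meis2 were found together in 16, and 5 of the 6 nuclei with Otp also held Sim1. These overlaps were not tested. At least 2 UMIs of Lef1 were found in 75 nuclei (8, 30, 8 and 29) and of Synpo2 in 64 (16, 13, 15 and 20). Lef1 was found with Ebf2 in 21 nuclei and with Meis2 in 21. Of the Tcf7l2-0 neurons in each library, 173, 98, 28 and 99 held at least 2 UMIs of 1 or more of 8 regional factors, and 189, 118, 13 and 58 held neither these nor Lef1 or Synpo2. The regional identity of the latter nuclei could not be read from these genes at this depth.

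Clustering of the thinned nuclei, with genes scaled within each library, gave 13 subgroups, which are described by their leading genes and were not tested. The number depended on the setting. A lower resolution gave 10 subgroups, the largest of 518 nuclei, a higher one gave 17, and nuclei that were not thinned gave 14. Of the 13 subgroups, the 3 with the most nuclei held 182, 155 and 115 nuclei. Set against all other Tcf7l2-0 neurons, they were led by Zfhx3, 6330411D24Rik and Efna5. Subgroup 4 (71 nuclei) was led by Slit3 and Cdh13, and Nr5a1 was found in 14.1% of its nuclei at 4000 UMIs. Subgroup 5 (62 nuclei) was led by Dgkb and Kctd16, with Sim1 in 41.9%. Subgroup 6 (60 nuclei), led by 6330411D24Rik and Ebf1, held much of the remaining Lef1, found in 61.7% of its nuclei against 0% to 14.0% in the other subgroups. Ebf1 was found in 68.3% of its nuclei.

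Several smaller subgroups had high shares of nuclei with Lmx1a or Sim1. Lmx1a was found in 43.5% of subgroup 8 (46 nuclei, led by Tcf4 and Nfib), 70.8% of subgroup 9 (24 nuclei, led by Htr2c and Chrm3) and 63.6% of subgroup 13 (11 nuclei, led by Nxph1 and Egfem1, with Ebf2 in 81.8%). In the 10 other subgroups Lmx1a was found in 0% to 9.34% of nuclei. Sim1 was found in 63.6% of subgroup 10 (22 nuclei, led by Gpc5 and Kcnh1) and 61.1% of subgroup 11 (18 nuclei, led by Nxph1 and Prkg1), and in 0% of subgroups 4, 9 and 13, but also in 19.2%, 12.9% and 11.3% of the 3 largest subgroups. Subgroup 12 (15 nuclei) was led by Gulp1 and Gpc6 and held Ebf3 in 66.7%. COL 1, with 56 nuclei, had no nucleus in subgroups 5, 8, 11, 12 and 13, and NS 2 had none in subgroup 13. Subgroups 11, 12 and 13 held only 2.17%, 1.81% and 1.32% of all Tcf7l2-0 neurons. Whether COL 1 lacks these subgroups beyond counting error was not tested.

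Subgroup 7 (50 nuclei) was led by the oligodendrocyte genes Prr5l, St18 and Mbp. Its oligodendrocyte list summed to 6548 CPM, while the other subgroups had 803 to 1691 CPM. It held 15, 15, 8 and 12 nuclei of the 4 libraries, which was 4.04%, 6.47%, 14.3% and 6.98% of their Tcf7l2-0 neurons. The comparison of COL with NS was therefore also run without these nuclei.

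**Figure D4:**
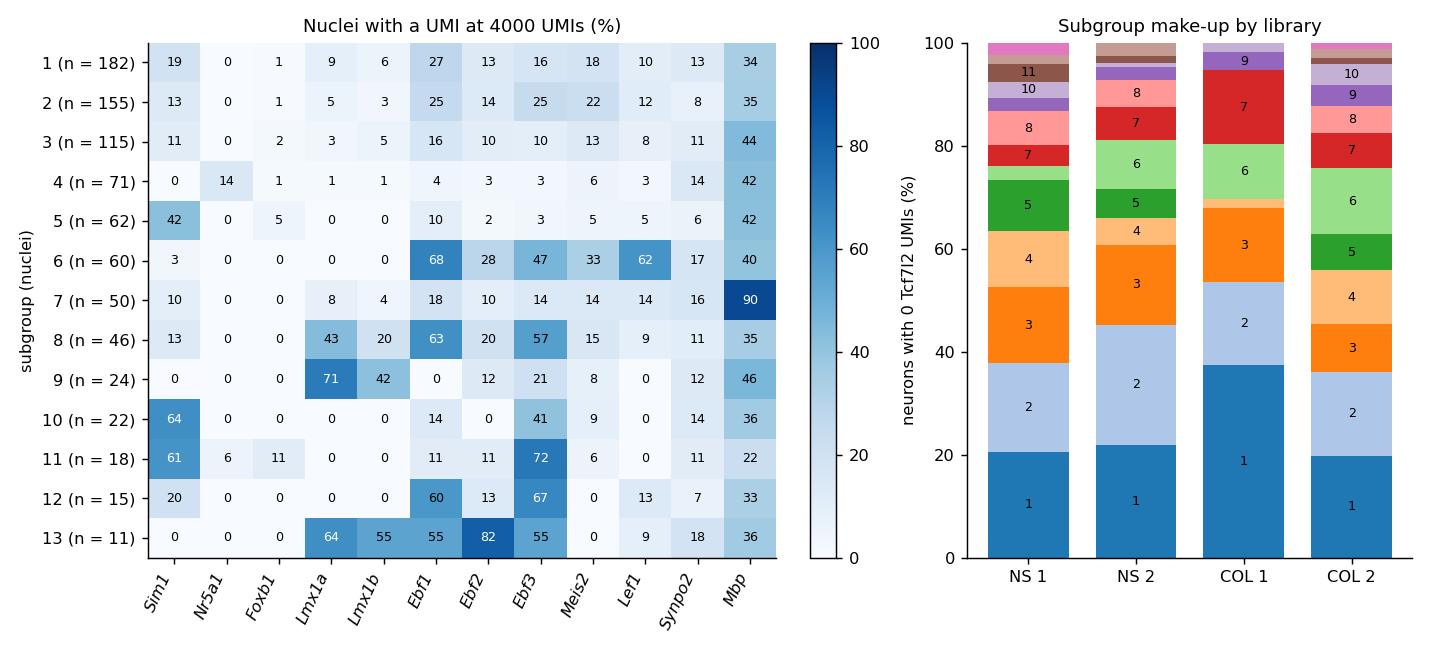
Left, percentage of nuclei with a UMI of 12 genes at 4000 UMIs per nucleus in 13 subgroups of Tcf7l2-0 neurons. Right, make-up of each library by subgroup, stacked from subgroup 1 at the bottom. Lef1 stands out in subgroup 6 (61.7%), Lmx1a in subgroup 9 (70.8%) and Sim1 in subgroup 10 (63.6%). COL 1, with 56 nuclei, lacks 5 subgroups, and NS 2 lacks subgroup 13.

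Within Tcf7l2-0 neurons, COL and NS libraries differed in 453 genes (3.21% of those tested). The question was what changed in these cells 7 days after the bleeding. Of 14128 genes tested by edgeR, 160 were higher in COL (1.13%) and 293 were lower (2.07%), and 2959 had an unadjusted p under 0.05. With subgroup 7 left out, 177 genes were called (55 higher and 122 lower), of which 176 were among the 453. DESeq2 called 147 genes. Without COL 1, 304 genes were called and 270 of them were shared with the full set, while 118 genes were called without NS 1 and 1197 without COL 2. Leaving out the 26 nuclei in which non-neuronal markers passed 0.5% of UMIs (2, 4, 7 and 13 by library) left 98 calls, all of them shared.

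The genes that rose most included several that are known from glia and macrophages. Spp1, the secreted phosphoprotein osteopontin, stood at 0 and 3.69 CPM in NS and at 49.8 and 37.6 CPM in COL (log2 change 4.86 ± 0.66 SE, adjusted p = 0.0133). Neat1, a long noncoding RNA of nuclear paraspeckles, stood at 37.4 and 47.1 CPM in NS and at 188 and 196 CPM in COL (2.24 ± 0.18 SE, adjusted p = 0.00147). Both also rose with COL in oligodendrocyte nuclei, where Spp1 went from 0.706 and 2.22 CPM to 22.5 and 68.8 CPM, and Neat1 from 1111 and 1074 CPM to 1770.4 and 2382 CPM. Without subgroup 7 their changes were 4.80 (adjusted p = 0.0267) and 1.91 (adjusted p = 0.00996). Spp1 was not called by DESeq2 (adjusted p = 0.484), and its change was 3.52 without NS 1 and 9.82 without NS 2, since NS 1 held none. The change of Neat1 was 1.24 (adjusted p = 0.0362) without the 26 nuclei over the non-neuronal limit.

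Rhoj, a small GTPase gene, stood at 10.5 and 12.7 CPM in NS and at 51.1 and 35.5 CPM in COL, and Itgav, the integrin alpha V gene, at 8.53 and 10.7 CPM and at 39.6 and 30.2 CPM. Rhoj lost its call without subgroup 7 (0.70, adjusted p = 0.261). Myo1e, an unconventional myosin gene, and Lrmda were also among the 10 named genes that rose. Myo1e lost its call in 5 of 13 alternatives, among them those without subgroup 7 (1.89, adjusted p = 0.0861), without NS 1 (0.106) and with at least 3 Slc17a6 UMIs (0.82, adjusted p = 0.419). Itgav lost its call without NS 1 (adjusted p = 0.0771). Prr5l, St18 and Bcas1 are genes of the oligodendrocyte lineage. Prr5l stood at 57.7 and 96.7 CPM in NS and at 285 and 241 CPM in COL (1.81 ± 0.24 SE, adjusted p = 0.0122), and St18, a zinc finger factor, at 72.7 and 111 CPM and at 287 and 258 CPM (1.61 ± 0.21 SE, adjusted p = 0.0122). Without subgroup 7, Prr5l changed by 0.93 (adjusted p = 0.185), St18 by 0.82 (adjusted p = 0.162) and Bcas1 by 0.73 (adjusted p = 0.23), and none was called. F13a1, the coagulation factor XIII subunit of macrophages, had an adjusted p of 0.0478, which became 0.0721 without subgroup 7 and 0.0778 without COL 1.

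Genes that fell were led by Pmch, from 80.8 and 55.7 CPM in NS to 2.55 and 13.4 CPM in COL (-2.68 ± 0.36 SE, adjusted p = 0.0132, and 0.0732 with DESeq2). Ptgds, the prostaglandin D2 synthase gene, stood at 202 and 452 CPM in NS and at 20.4 and 70.7 CPM in COL, and was not called by DESeq2 (adjusted p = 0.149). Cox5b, a subunit of cytochrome oxidase, stood at 42.9 and 49.2 CPM in NS and at 6.38 and 13.7 CPM in COL (-1.94 ± 0.29 SE, adjusted p = 0.0166), and Ubb, the ubiquitin B gene, at 89.0 and 96.3 CPM and at 10.2 and 32.0 CPM (-1.84 ± 0.29 SE, adjusted p = 0.0176). Chchd10, a mitochondrial protein gene, and the tubulin gene Tubb4b fell by 2.09 and 1.97. Prodh, the mitochondrial proline dehydrogenase gene, fell by 1.66 and lost its call in 6 of 13 alternatives, among them those without NS 1 (adjusted p = 0.0948) and without subgroup 7 (0.0615). Of the 20 named genes, 13 kept their call without subgroup 7. Without nuclei over the non-neuronal limit, 3 of the 10 that rose and 7 of the 10 that fell kept theirs. With at least 3 Slc17a6 UMIs, 2 of the 10 that rose and 7 of the 10 that fell did. The antisense genes Sorbs2os, Nrg3os and Far1os fell by 1.80, 1.75 and 1.62 on the log2 scale, and since the strand setting of the counting is not given in the sources used here, their reads cannot be told apart from those of overlapping genes.

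Most of the named genes moved in the same direction in oligodendrocyte nuclei. Of the 10 that fell, 10 were lower on average in COL oligodendrocyte nuclei (51.1% of the 14128 genes) and 9 without overlap of the groups (30.3%), and 6 were higher in oligodendrocyte nuclei than in Tcf7l2-0 neurons in all 4 libraries (24.9% of the 14128 genes). Of the 10 that rose, 8 were also higher on average in COL oligodendrocyte nuclei (48.9%), 7 without overlap (29.7%), and 8 were higher in oligodendrocyte nuclei than in Tcf7l2-0 neurons in all 4 libraries. Among those that rose, St18 and Bcas1 were not higher on average in COL oligodendrocyte nuclei. Spp1 and F13a1 were the genes not higher in oligodendrocyte nuclei than in Tcf7l2-0 neurons in every library. Pmch, a transcript of neurons, fell there from 49.1 and 38.6 CPM to 4.67 and 17.1 CPM. The part of RNA from other cells in these changes was not tested.

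**Figure D5:**
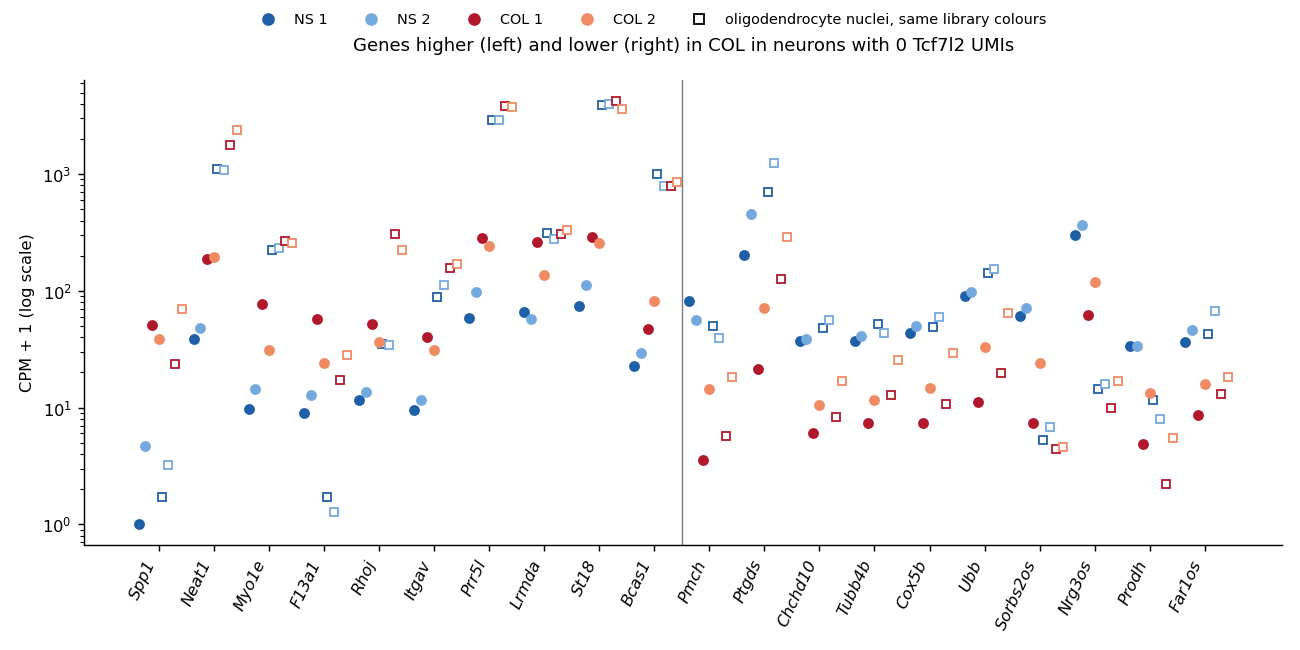
CPM plus 1 on a log axis of the 10 named genes that rose and the 10 that fell in COL Tcf7l2-0 neurons, with filled circles for each library of Tcf7l2-0 neurons and open squares for oligodendrocyte nuclei. Neat1 rises from 37.4 and 47.1 CPM to 188 and 196 CPM, and the fall of Pmch is seen in both kinds of nuclei.

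Single genes of the neuronal lists differed between COL and NS. In the thalamic list Cacna1g rose among 11 genes tested, with 57.2 and 45.5 CPM in NS and 109 and 84.0 CPM in COL (0.90 ± 0.19 SE, adjusted p = 0.0385). The call was lost in 9 of 13 alternatives, among them those without subgroup 7 (adjusted p = 0.0513), NS 1 (0.0942), NS 2 (0.0794) or COL 1 (0.0715), and over all 13 the adjusted p ranged from 0.000507 to 0.297. In the midbrain list Ebf2 rose among 6, from 68.0 and 69.7 CPM to 102 and 139 CPM (0.88 ± 0.17 SE, adjusted p = 0.0312), a call lost in 8 of 13 alternatives, among them those without subgroup 7 (adjusted p = 0.0904), NS 1 (0.16) or COL 2 (0.0721), with a range from 0.000188 to 0.312. No gene of the hypothalamic list or of the subthalamic and mammillary list passed, with 3 tested in each. Sim1 changed by -0.41 ± 0.36 SE (adjusted p = 0.56) and Lmx1a by -0.16 ± 0.48 SE (adjusted p = 0.896). In sums over nuclei, a change in level cannot be told apart from a change in the mix of subgroups, and the subgroup make-up differed between libraries.

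Among peptides Tac1, the substance P precursor, fell from 34.6 and 20.1 CPM to 7.66 and 9.85 CPM, beside Pmch, while in oligodendrocyte nuclei it went from 33.9 and 20.3 CPM to 3.05 and 6.68 CPM. Its call (adjusted p = 0.0443) was lost in 10 of 13 alternatives, among them those without subgroup 7 (adjusted p = 0.0745), NS 1 (0.335) or COL 1 (0.0643), over a range from 0.000448 to 0.335. Among injury and activity genes Hmox1, the haem oxygenase that breaks down haem, rose from 1 UMI in each NS library to 9 UMIs in COL 1 and 37 in COL 2 (5.16 ± 0.61 SE, adjusted p = 0.0084), and in oligodendrocyte nuclei from 0 and 1.11 CPM to 13.6 and 20.7 CPM. With the UMIs of the 2 libraries of a group pooled, 2 in NS against 46 in COL gave a ratio of 40.7 per UMI sequenced. Its 95% interval from 10.7 to 347 covers counting error only and leaves out the spread between libraries and between nuclei. The COL counts came from 783300 UMIs in COL 1 and 2844032 UMIs in COL 2. Among markers of other cells Mbp, Mobp and St18 rose in the oligodendrocyte list, and Inpp5d, Fyb and F13a1 in the microglia and macrophage list. Inpp5d lost its call without subgroup 7 (adjusted p = 0.0513), NS 1 (0.205) or COL 2 (0.279), while Fyb and Hmox1 kept theirs without subgroup 7. Fyb stood at 1.76 and 2.05 CPM in NS and at 25.5 and 22.2 CPM in COL (3.65 ± 0.40 SE, adjusted p = 0.00654). The summed microglia and macrophage list stood at 98.3 and 115 CPM in NS and at 153 and 166 CPM in COL, and the oligodendrocyte list at 909 and 1140 CPM in NS and at 1126 and 1674 CPM in COL. Without subgroup 7, Mbp changed by 0.38 (adjusted p = 0.392) and Mobp by 0.88 (adjusted p = 0.108).

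The effect of COL was compared between the 2 classes by the interaction term of the same fit. Of 18814 genes, 6 were called with a more positive effect of COL in Tcf7l2-0 neurons than in Tcf7l2-positive neurons (0.0319%). None was called with a more negative one. In all, 1095 genes had an unadjusted p under 0.05, and DESeq2 gave 1 call. The single call by DESeq2 was Plekhg1, one of the 6. Without NS 1, NS 2, COL 1 or COL 2 there were 25, 13, 165 and 78 calls. Cacna1g, Ebf2, Spp1, Neat1 and Pmch, which changed within Tcf7l2-0 neurons, were not shown to change differently in the other class (adjusted p of 0.51, 0.909, 0.994, 0.197 and 0.695). Their changes in Tcf7l2-positive neurons were 0.42, 0.50, 3.99, 1.31 and -2.07 on the log2 scale.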

How the data were processed

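Raw UMI counts, deposited by the authors as 1 matrix of genes by barcodes per library, came from 10x Genomics nuclei and Cell Ranger 1.2.0 with the mm10 reference. The methods mention neither doublets nor free RNA, and no doublet caller was run here. Nuclei whose astrocyte, oligodendrocyte, microglia or other non-neuronal markers passed 0.5% of UMIs were left out as an alternative in place of doublet removal. The members, the gene lists and the tests were chosen with earlier results of these data known. The oligodendrocyte reference (nuclei with at least 1% of UMIs from the oligodendrocyte list and at most 3 of the 5 neuronal genes) and the alternative without subgroup 7 were chosen after the data had been seen.

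Counts were summed per library and class and tested by the quasi-likelihood method of edgeR 4.0.16 in R 4.3.3, with TMM factors, the filterByExpr filter and a threshold of 0.05 on p-values adjusted after Benjamini and Hochberg. DESeq2 1.42.0 was the alternative test. Where a library was left out, the lone library of its group was taken to vary like those of the other group. Shares were compared by two-sided exact permutation tests of 4 library values. Nothing in the labels says that the pools of a group were prepared apart, so p-values measure the spread between these libraries. Subgroups came from 2000 variable genes, 15 principal components and Leiden clustering at a resolution of 0.8 with leidenalg 0.10.2. Python 3.11.15 was used for the rest (scipy 1.17.1, numpy 2.4.6, scikit-learn 1.9.0, pandas 2.3.3, matplotlib 3.10.9).

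Named genes had to pass 0.05 with a mean of at least 20 CPM. For COL against NS they were the 10 with the largest change in each direction among genes whose groups did not overlap. Between classes they were the 12 higher and 8 lower genes of the same direction in 4 of 4 libraries. Gene models without a proper name and the genes of the rule were left out of both, and genes of the fixed lists were named where they passed. Further genes were named after their values had been seen, namely the 6 of the interaction. Some genes that the lists and rules include are counted but not reported here by name.

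The tests were run on simulated counts first, with 200 genes changed. Every gene had the same spread around its mean, and libraries differed only in size and in the changed genes. Changed genes were drawn from those above a minimum mean count. The rates below hold for that setting and do not give the power or the false calls in the real libraries. For COL against NS (13714 genes, of which 195 changed ones passed the filter) edgeR called 26.3% of 2-fold and 89.6% of 4-fold changes with 6 false calls. Between classes (17807 genes) it called 71.0% and 91.0% with 7 false calls. For the interaction (17816 genes) it called 5.00% and 57.0% with 5 false calls.

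Alternatives were DESeq2, RLE normalization, no filter on low counts, at least 6000 UMIs, at least 3 Slc17a6 UMIs, a comparison class with at least 3 Tcf7l2 UMIs, thinning to 4000 UMIs, a denominator of all nuclei of at least 4000 UMIs, a replicate block and each library left out in turn. Whether intronic reads were counted is not given in the sources used here.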

Additional observations from a re-analysis of the deposited data

Results flagged for a closer look

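The effect of COL differed between Tcf7l2-0 and Tcf7l2-positive neurons in 6 genes by the interaction term (edgeR, Benjamini-Hochberg adjustment). Cdk6, a cyclin-dependent kinase gene, stood at 1.51 and 0.410 CPM in NS and at 10.2 and 8.79 CPM in COL Tcf7l2-0 neurons, while Tcf7l2-positive neurons held 15.4, 24.5, 18.5 and 14.1 CPM (log2 difference of the effects 3.42 ± 0.55 SE, adjusted p = 0.0376). The call of Cdk6 was kept in 8 of 12 alternatives, among them the one without subgroup 7 (adjusted p = 0.0295). It was lost in 4, among them DESeq2 and the one without nuclei over the non-neuronal limit. Plekhg1 stood at 38.1, 36.5, 105 and 71.4 CPM in Tcf7l2-0 neurons (1.36 ± 0.21 SE, adjusted p = 0.0332), at 495, 695, 689.7 and 419 CPM in Tcf7l2-positive neurons and at 696 to 852 CPM in oligodendrocyte nuclei. Mctp2 differed by 1.40 ± 0.24 SE (adjusted p = 0.0463) and Fign by 1.00 ± 0.17 SE (adjusted p = 0.0401). In Tcf7l2-0 neurons Mctp2 was highest in COL 1 with 52.3 CPM against 18.0 to 23.2 CPM in the other libraries, and so was Fign with 169 CPM against 75.3 to 103 CPM.

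Prr5l and St18 differed by 1.20 each (SE 0.18, adjusted p = 0.0306). Both are oligodendrocyte genes that led subgroup 7, and in Tcf7l2-positive neurons they changed by 0.62 and 0.40 with COL. Without subgroup 7 the differences were 0.29 (adjusted p = 0.972) and 0.33 (adjusted p = 0.943), and no gene was called when nuclei over the limit of non-neuronal markers were left out, with 1016 at an unadjusted p under 0.05.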

How the results depend on the processing

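The count of genes that differed between COL and NS within Tcf7l2-0 neurons (453) was 147 with DESeq2, 1398 with no filter on low counts, 96 with at least 6000 UMIs, 70 with at least 3 Slc17a6 UMIs (6 higher and 64 lower), 98 without nuclei over the non-neuronal limit and 177 without subgroup 7. Leaving out each library in turn gave 118 to 1197. Thinning to 4000 UMIs gave 150 higher and 160 lower genes, against 160 and 293. The count between classes (3733) was 2443 with DESeq2 and 1976 after thinning, and 2355 to 3502 with each library left out. The interaction count (6) was 1 with DESeq2, 77 with no filter, 0 without nuclei over the non-neuronal limit, 19 after thinning, 1 without subgroup 7, and 13 to 165 with each library left out. The summed oligodendrocyte list, 1212 CPM on average, was 873 without nuclei over the limit, 1574 after thinning and 822 without subgroup 7. Apart from fewer nuclei or genes where a setting removes them, the causes were not tested.

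The share difference stayed negative in every alternative, from -22.1 to -7.88 points with each library left out. With all nuclei of at least 4000 UMIs as the denominator it was -2.66 points, and thinning before the rule gave -21.3 points.

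Directions turned in the interaction of Prr5l (-0.41) and St18 (-0.34) without nuclei over the limit, and between classes for Mag (-0.14 without subgroup 7) and St18 (-0.36 with at least 3 Slc17a6 UMIs, -0.13 without nuclei over the limit, -0.89 without subgroup 7). For the other genes called in these comparisons and named or listed, the direction held in the alternatives that gave a value. Calls were kept in 269 of 360 fits for 28 genes of COL against NS, in 909 of 1022 for 80 genes between classes and in 43 of 72 for the interaction.

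Replicate numbers were not taken to pair the samples. Deviations of NS 1 and COL 1 from their group means correlated at -0.011 over 14138 genes. With 2 libraries per group the other pair repeats this value, so a shared preparation cannot be told from it. The fit with a replicate block gave 552 genes (157 higher and 395 lower), of which 394 were shared. COL 1 held 56 nuclei, the fewest.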
